A study of Limodorum abortivum with 6 samples.

Results

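Nuclear genes for chloroplast-targeted proteins were described in roots of *Limodorum abortivum*, a Mediterranean orchid with reduced leaves that lives largely on carbon from its fungal partners. Members were the genes of the study's plant annotation table whose UniProt description holds the word chloroplastic, found by their assembly identifier in the count files. Of 127 such genes the rule left out 6, named one by one, among them photosystem II, cytochrome b6-f, antenna and NDH genes, while a few photosystem II genes that it did not name (MSTRG.2469, MSTRG.2470 and MSTRG.2621) stayed in. The rule used names and no measured values. It gave 121 members, which were 10.4% of the 1159 plant genes in the rows of the annotation used here, and the count files held 100005 assembled genes of plant and fungi. These rows are a small part of the plant annotation, so 121 is no estimate of how many such genes the orchid expresses.

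RNA came from frozen root segments of different adult, naturally grown individuals at a single site, and polyA-selected libraries were sequenced from 6 samples, of which LM3, LM4 and LM6 were mycorrhizal roots (LM) and LS2, LS3 and LS6 were labelled as not mycorrhizal (LS). The LM and LS roots differed by the label mycorrhizal, yes or no, and no other treatment, genotype or age was given. LS roots came from the same site and also carried fungal RNA. The segments were not separated into cell types, so that fewer cells of a type and less RNA per cell cannot be told apart in any value below. Counts summed over genes ranged from 4748078 to 6019195 per library. Reads that matched more than 1 gene at 1 place took 3.78% to 4.16% of the counted alignments in LM and 7.46% to 11.3% in LS. This share moved with the groups, and its part in the results was not tested.

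Plastids are not confined to green cells. In roots they are mostly colourless, and they make fatty acids, amino acids, nucleotides, vitamins, carotenoids and hormone precursors. Only a small set of plastid proteins is encoded in the plastid genome. The others are made in the cytosol with a targeting peptide, pulled through the TOC and TIC translocons of the envelope and folded by plastid chaperones. Nuclear proteins also run the plastid genome: polymerases and mTERF proteins act in transcription, pentatricopeptide repeat (PPR) proteins each bind short stretches of organelle RNA and act in its editing, splicing or stability, and imported ribosomal proteins complete the plastid ribosome. The roles given here were known from other plants, mostly Arabidopsis, and were attached to the orchid genes by the similarity of their sequences.

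The names of the members were checked first. Every name was chloroplastic for 81 members, while 40 members carried a UniProt name without that word, and 9 were described as chloroplastic/mitochondrial. For some of the 40 the name without it was listed first, as for the leucine aminopeptidase MSTRG.1877 and the phosphodiesterase MSTRG.805. For some members the names pointed elsewhere. MSTRG.2045 was called both a mitochondrial and a chloroplastic PPR protein, and MSTRG.1164 an INDETERMINATE DOMAIN protein, a family known in Arabidopsis as zinc finger transcription factors of the nucleus. Location of the genes in the nucleus follows from the names alone. The taxon closest to the assembled sequence was an orchid for 96 members, of which 76 were assigned to *Dendrobium catenatum* and 12 to *Phalaenopsis equestris*. It was a wider plant group for 9, of which 6 were assigned to Pentapetalae, and another named plant taxon for 16. By role, there were 23 PPR proteins, 13 thylakoid and photosynthesis factors, 13 genes of the plastid ribosome and translation, 12 of amino acid, nucleotide and cofactor metabolism, 11 of redox and metal handling, 10 of plastid transcription and RNA, 8 of carbon metabolism and transport, 8 of protein import and chaperones, 7 of lipid and oxylipin metabolism, 7 of carotenoid and hormone metabolism and 9 others.

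All members were detected, in that none had 0 counts in every library, but many only just. Normalized counts are given as CPM, that is, counts scaled to the same number of plant reads in every library, with the plant reads as the study assigned them and with TMM factors. The median member had a mean of 5.86 CPM. The filter on low counts kept 77 members and left out 44, whose summed count over the 6 libraries was at most 245. Transcript lengths were not used, so genes ordered by CPM are ordered by the reads they took and not by transcript level.

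The chloroplast-targeted genes as a whole overlapped between mycorrhizal and non-mycorrhizal roots. Their summed level was 3074 CPM in LM3, 2994 CPM in LM4 and 3026 CPM in LM6, and 3525 CPM in LS2, 2800 CPM in LS3 and 3260 CPM in LS6. The LM libraries lay inside the range of the LS libraries. LM averaged 3031 ± 40.0 CPM and LS 3195 ± 367 CPM (each SD, n = 3), a ratio of 0.949. The 5 members with the most reads supplied 42.3% of the sum, and the first of them, a leucine aminopeptidase, 10.8%. Without the latter the means were 2672 and 2882 CPM and the groups still overlapped.

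**Figure D1:**
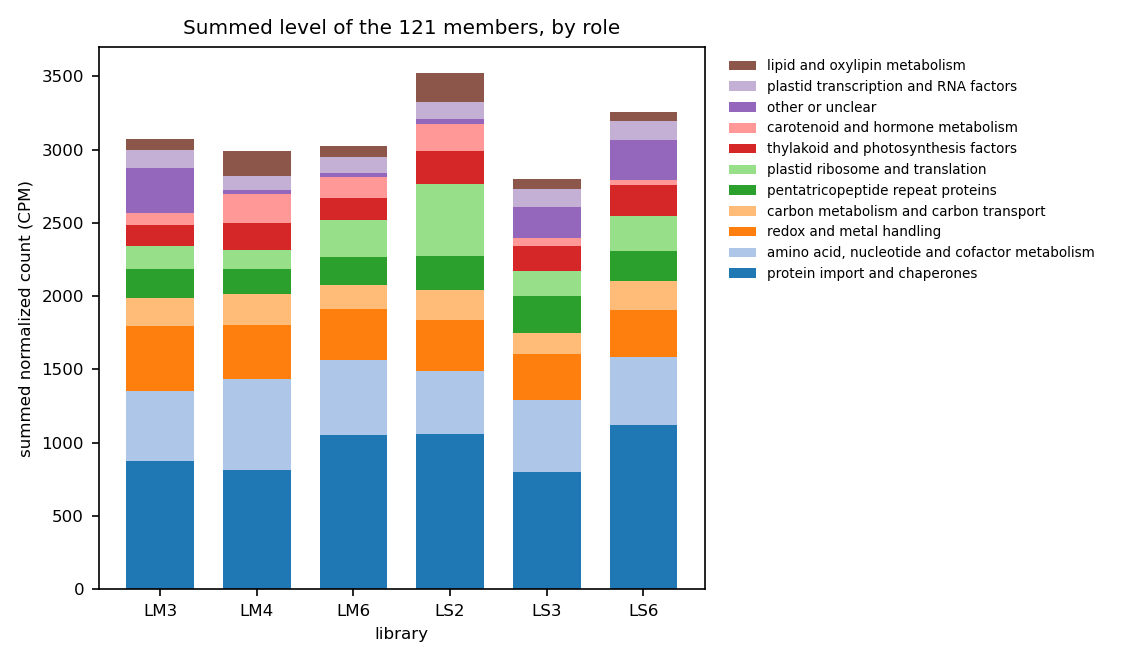
Stacked bars give the summed normalized counts (CPM, vertical axis) of the 121 members in each of the 6 libraries, coloured by role. The totals run from 2800 CPM in LS3 to 3525 CPM in LS2, and protein import and chaperones form the thickest layer in every library.

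Of the 77 members tested, 37 were higher and 40 lower in LM than in LS, and the median log2 fold change was −0.0050, beside −0.014 over all 719 listed plant genes tested. Single members ranged from −2.19 to 2.06. In edgeR's quasi-likelihood test with Benjamini-Hochberg adjustment over the 719 genes, 0 members and 0 of all genes passed the threshold of 0.05 (0% called). The lowest adjusted p of a member was 0.186. At an unadjusted p under 0.05 there were 6 members, 3 higher and 3 lower (7.79% of those tested), where the share over all listed genes was 15.7% (8.34% higher and 7.37% lower). Libraries of LM and LS did not overlap for 12 members, 5 higher and 7 lower (15.6%), beside 24.5% over all listed genes (12.9% higher and 11.5% lower). On both measures the members' share lay below that of the listed genes as a whole. limma-voom called 0 members. DESeq2, with weaker filtering, called 6 of the 119 members it tested, 4 higher and 2 lower, beside 6.51% of all listed genes it tested (3.52% higher and 2.99% lower). When all assembled genes of plant and fungi were fitted together, 0 members were called beside 3.09% of the 22268 genes tested, and the split was 24 higher and 54 lower with a median of −0.27. The listed plant genes as a whole then had a median of −0.26, so that relative to them the members were again near 0. A stricter filter on low counts also gave 0 called members, beside 0.612% of 654 genes.

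**Figure D2:**
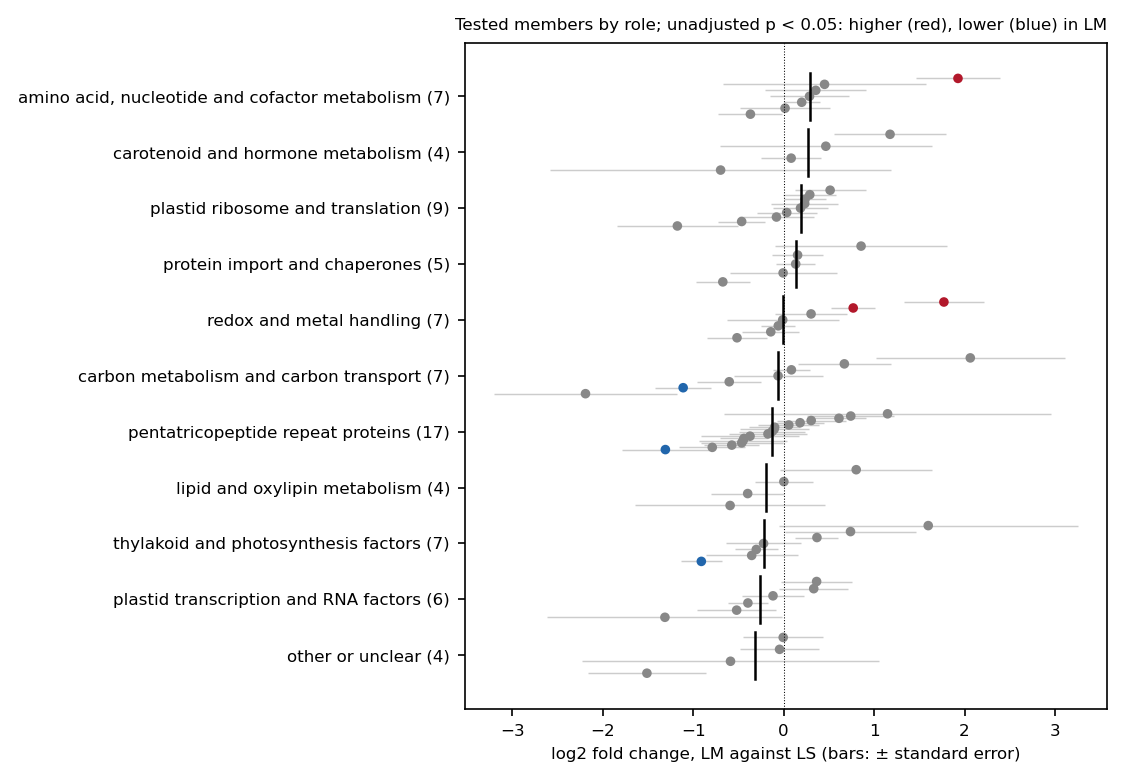
Each point is the log2 fold change of 1 of the 77 tested members (LM against LS, horizontal axis) with its standard error, in rows by role with the number tested in parentheses, and a black line marks each role's median. Red and blue points are the 3 higher and 3 lower members with an unadjusted p under 0.05, and the role medians all lie between −0.32 and 0.29.

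The 6 members with an unadjusted p under 0.05 are described in turn, each with its value in every library. The steepest difference among those higher in LM was that of MSTRG.115, a nucleoside diphosphate kinase. Such kinases pass phosphate from ATP to other nucleoside diphosphates, and this one was named as chloroplastic/mitochondrial. Its level was 23.8, 45.4 and 17.8 CPM in LM3, LM4 and LM6, and 5.40, 9.74 and 7.62 CPM in LS2, LS3 and LS6. All LM libraries were above all LS libraries, and LM4 was highest. This was a log2 fold change of 1.93 ± 0.46 (SE), with an adjusted p of 0.186 in edgeR and of 0.0116 in DESeq2. Over all alternatives the log2 fold change ran from 1.47 to 2.19 and the adjusted p from 0.0116 to 0.380. The sequence was assigned to Pentapetalae, a group of eudicots, and not to an orchid. A second gene of the same Trinity locus, MSTRG.116, held few counts, namely 5, 4 and 4 for LM against 0, 1 and 0 for LS. Its pooled ratio was 13.1, with a 95% counting interval from 1.97 to 557, and the summed locus had a log2 fold change of 1.97.

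MSTRG.1219, a copper chaperone that loads Cu/Zn superoxide dismutase with its metal, differed by a similar amount. It measured 52.9, 59.2 and 24.0 CPM in LM3, LM4 and LM6, and 9.07, 17.6 and 13.1 CPM in the LS libraries. LM6 was the lowest LM library but still above LS3, the highest LS library. On the log2 scale it was 1.77 ± 0.45 higher, with an adjusted p of 0.186 in edgeR and of 0.0181 in DESeq2. MSTRG.1218 of the same locus had 13, 2 and 5 counts in the LM libraries against 2, 5 and 6 in the LS libraries, which overlap.

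The third higher member also belonged to redox handling. MSTRG.2198 was named DHAR2, a dehydroascorbate reductase, which returns oxidized ascorbate to its reduced form with glutathione. It was at 58.2, 72.1 and 42.6 CPM in LM3, LM4 and LM6, and at 31.8, 35.1 and 34.4 CPM in the LS libraries, which were close to each other. Its log2 fold change was 0.77 ± 0.24 (adjusted p = 0.237, edgeR). MSTRG.2199, on the same Trinity locus and named first for the cytosolic DHAR1, had a log2 fold change of −0.14 ± 0.31, with overlapping groups. The difference between both genes of the locus was 0.91 on the log2 scale and was not tested. Their summed counts gave 0.60.

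Among the members lower in LM, the one with the lowest p was MSTRG.1131, named LOW PSII ACCUMULATION 2. In Arabidopsis this protein helps insert the CP43 subunit when photosystem II is assembled. Its level was 49.6, 70.8 and 47.9 CPM in LM3, LM4 and LM6, and 112, 94.8 and 110 CPM in LS2, LS3 and LS6. The highest LM library stayed below the lowest LS library. Its log2 fold change was −0.91 ± 0.22, with an adjusted p of 0.186 in edgeR and of 0.0351 in DESeq2. Its neighbour on the locus, MSTRG.1132, had 1, 0 and 1 counts against 4, 5 and 2 in LS, a pooled ratio of 0.183 with a counting interval from 0.0197 to 0.839.

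MSTRG.2035 was a plastid fructose-1,6-bisphosphatase, an enzyme of the Calvin cycle and of starch synthesis from triose phosphates. It was at 10.9, 6.30 and 8.35 CPM in the LM libraries and at 17.9, 21.0 and 16.3 CPM in the LS libraries. The groups were apart, with means of 8.50 ± 2.28 and 18.4 ± 2.37 CPM (SD, n = 3). The log2 fold change was −1.11 ± 0.31 (adjusted p = 0.188 in edgeR and 0.0296 in DESeq2).

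MSTRG.1011 was named for the PPR protein At4g31850, known in Arabidopsis as PGR3, which stabilizes plastid transcripts of cytochrome b6-f and NDH subunits. It was at 20.1, 6.05 and 18.8 CPM in LM3, LM4 and LM6, and at 44.1, 36.0 and 31.5 CPM in LS2, LS3 and LS6. LM4 was far below the other LM libraries. Its log2 fold change was −1.31 ± 0.48 (adjusted p = 0.280, edgeR), and DESeq2 did not call this gene (adjusted p = 0.140).

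**Figure D3:**
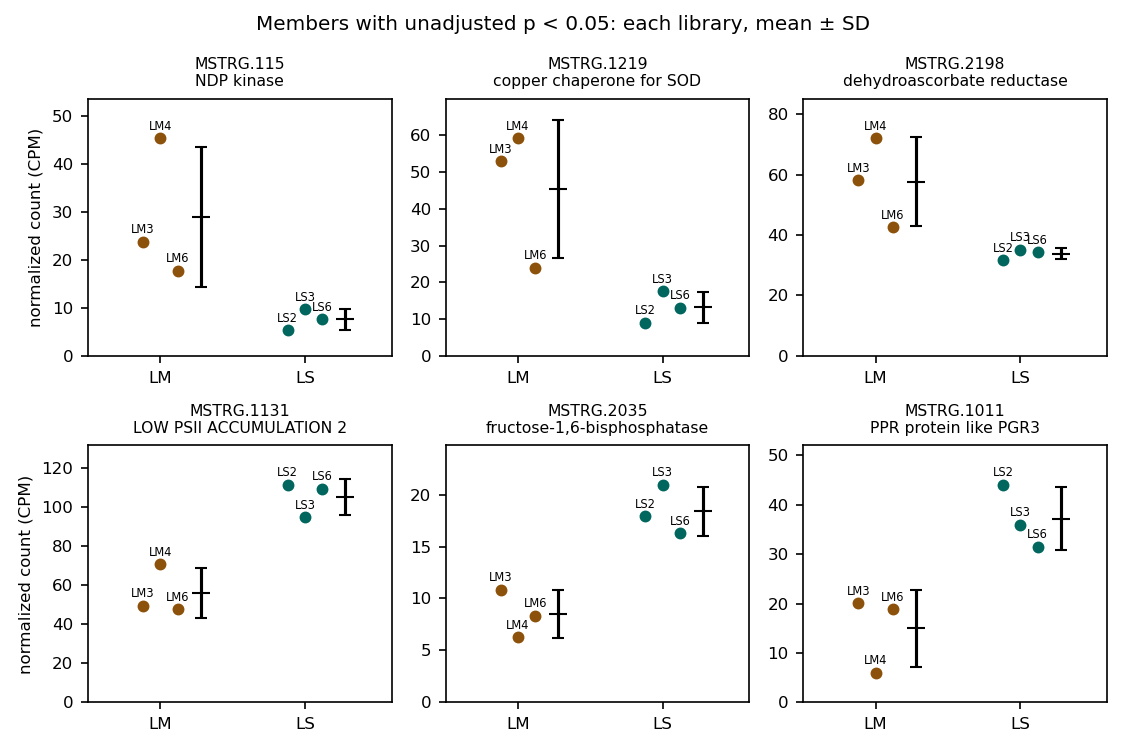
Each panel shows 1 of the 6 members with an unadjusted p under 0.05, with the normalized count (CPM, vertical axis from 0) of every library as a point and the mean ± SD of each group beside it. In all panels the 3 LM points and the 3 LS points occupy separate ranges, and LM4 and LM6 differ by more than the LS libraries do for the kinase, the copper chaperone and the reductase.

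The 6 members called by DESeq2 were MSTRG.115, MSTRG.1219, MSTRG.1131 and MSTRG.2035 and a pair that failed edgeR's filter. MSTRG.1164, the INDETERMINATE DOMAIN protein, had 8, 19 and 15 counts in LM libraries against 0, 3 and 0 in LS libraries. It was present in every LM library and nearly absent in LS, with a pooled ratio of 14.1 and a counting interval from 4.51 to 71.1 (adjusted p = 0.0377, DESeq2). MSTRG.1195, a polyphenol oxidase that turns phenols into quinones, had 15, 4 and 4 counts in LM libraries and 0 in each LS library. Against a floor of 3 counts over the LS group it was 7.72-fold higher in LM (adjusted p = 0.0377, DESeq2), and 4.06-fold higher without LM3. These folds take the LM counts as exact. The counting interval of the ratio over all libraries began at 5.79.

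In all, 8 of the 44 untested members (18.2%) had non-overlapping libraries, 4 higher and 4 lower in LM, beside 15.5% of the 440 listed plant genes below the filter (8.86% higher and 6.59% lower). All had at least 10 counts. For 3 of the 8, MSTRG.1145, MSTRG.2147 and MSTRG.2469, the raw counts of both groups met at the same number, and the normalized counts alone were separate. Besides MSTRG.116, MSTRG.1164, MSTRG.1195 and MSTRG.1132 these were a cysteine synthase, a pair of RNA-binding proteins and a subunit of the water-splitting complex. The synthase MSTRG.1145 had 4, 2 and 3 counts against 2, 2 and 0 in LS, with a counting interval of the ratio from 0.633 to 10.1. The PPR protein MSTRG.126 had 4, 3 and 7 counts in LM libraries and 10 in each LS library. THYLAKOID ASSEMBLY 8, MSTRG.2147, which acts in plastid intron splicing, had 5, 2 and 2 against 7, 7 and 5 counts. Oxygen-evolving enhancer protein 1, MSTRG.2469, had 0, 1 and 3 against 6, 5 and 3 counts. Counting intervals of the ratio held 1 for MSTRG.1145 and MSTRG.2147, and for MSTRG.126 and MSTRG.2469 they reached 0.915 and 0.917.

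The largest role was that of the PPR proteins, 23 genes of which 17 were tested. Of these, 6 were higher and 11 lower in LM, with a median log2 fold change of −0.13 and 1 unadjusted p under 0.05, that of MSTRG.1011. Their summed level was 199, 171 and 185 CPM in LM3, LM4 and LM6, and 228, 253 and 203 CPM in LS2, LS3 and LS6. These ranges did not overlap, although LM3 and LS6 were nearly equal. The sum rested on a pair of genes. Without MSTRG.1011 the LM mean was 170 CPM and the LS mean 191 CPM, without MSTRG.2045 they were 148 and 173 CPM, and the groups overlapped in both cases. Without both genes the means were 133 ± 17.4 and 136 ± 11.9 CPM. MSTRG.2045, the PPR gene with the most reads, was at 26.5, 38.3 and 46.4 CPM in LM and 44.5, 71.8 and 49.1 CPM in LS, with a log2 fold change of −0.57 ± 0.31 (adjusted p = 0.404, edgeR). Non-overlapping PPR genes went both ways, 2 higher and 3 lower among those tested (29.4%), beside 24.5% over all listed genes tested. Over all 23 there were 2 higher and 5 lower, the latter with the untested MSTRG.126 and MSTRG.2147. Of the listed genes below the filter, 15.5% did not overlap. Some PPR genes were uneven within a group. MSTRG.1109 had 48 and 46 counts in LM3 and LM4, 0 in LM6, 44 in LS2 and 1 in both LS3 and LS6. MSTRG.682 had 0 counts in LM3, LM4, LM6 and LS2, 23 in LS3 and 19 in LS6. Both were chosen after their values were seen.

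Among the factors of plastid transcription and RNA, 2 of 6 tested genes were higher and 4 lower, with a median of −0.26. CFM3, MSTRG.986, a splicing factor for plastid introns, was at 41.6, 33.0 and 41.9 CPM in LM and at 42.8, 60.3 and 50.2 CPM in LS. The groups were apart by a narrow gap between LM6 and LS2, and the log2 fold change was −0.39 ± 0.22 (adjusted p = 0.406, edgeR). Nuclear-encoded plastid RNA polymerase, MSTRG.2317, had a log2 fold change of 0.37 ± 0.39.

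Of 9 tested genes of the plastid ribosome and translation, 6 were higher and 3 lower, with a median of 0.19, and 0 had an unadjusted p under 0.05. Their summed level was 156, 131 and 252 CPM in LM3, LM4 and LM6 and 495, 169 and 242 CPM in LS2, LS3 and LS6. The groups overlapped, and the ratio of the means, 0.595, was the lowest of any role and on the other side of 1 from the median. The 50S proteins L24 (MSTRG.170) and L31 (MSTRG.1822) had log2 fold changes of 0.24 ± 0.23 and 0.04 ± 0.33, and Iojap, MSTRG.565, named for a protein of the plastid ribosome, one of −0.46 ± 0.26. The gene with the most reads was 30S ribosomal protein S1, MSTRG.1722, which helps load messenger RNA onto the ribosome, at 77.4, 53.4 and 157 CPM in LM and 402, 92.5 and 156 CPM in LS. LS2 stood above every other library. The log2 fold change of −1.17 ± 0.67 (adjusted p = 0.420, edgeR) became −0.35 without LS2.

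Protein import and chaperones held the most reads of any role, 816 to 1051 CPM in LM and 803 to 1119 CPM in LS, which overlap. Of 5 tested genes 3 were higher and 2 lower. MSTRG.935, a DnaJ protein of the A6/A7 type that works as a partner of plastid Hsp70, was at 207, 242 and 317 CPM in LM and at 512, 300 and 409 CPM in LS. Only LM6 lay above the lowest LS library, LS3. Between groups the log2 fold change was −0.67 ± 0.30 (adjusted p = 0.353, edgeR). The plastid co-chaperonin MSTRG.612 and MSTRG.1643, a chaperone-like protein that holds protochlorophyllide oxidoreductase in its folded form, were at 0.16 ± 0.29 and 0.13 ± 0.21 on the log2 scale.

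In amino acid, nucleotide and cofactor metabolism 6 of 7 tested genes were higher and 1 lower, with a median of 0.29, and the kinase MSTRG.115 alone had an unadjusted p under 0.05. The gene with the most reads was the leucine aminopeptidase MSTRG.1877, a peptidase that removes leucine and other residues from the start of peptides. It was at 319, 398 and 360 CPM in LM3, LM4 and LM6 and at 323, 316 and 299 CPM in LS2, LS3 and LS6. LM3 was below LS2. The log2 fold change was 0.20 ± 0.20 (adjusted p = 0.638, edgeR), and −0.046 when all genes of plant and fungi were fitted together.

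Redox and metal handling held the other pair of higher members, but 4 of its 7 tested genes were lower and the median was −0.01. BOLA4, MSTRG.1519, a partner of plastid glutaredoxins, was at 58.8 to 76.8 CPM in LM and 64.6 to 74.3 CPM in LS and thus nearly even over the 6 libraries. The gene with the most reads, a quinone oxidoreductase homolog of the envelope, MSTRG.2537, was at 160, 30.0 and 109 CPM in LM and 135, 64.3 and 101 CPM in LS. LM4 was lowest. Its log2 fold change was −0.01 ± 0.62 (adjusted p = 0.995, edgeR) and changed sign with the scaling, reaching 0.11 without TMM factors.

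The thylakoid and photosynthesis factors are mostly assembly and regulatory proteins, with oxygen-evolving enhancer protein 1 as a subunit of photosystem II. Of 13 genes 7 were tested, 3 higher and 4 lower, with a median of −0.22. Their summed level was 145 to 185 CPM in LM and 173 to 225 CPM in LS, which overlap. LOW PSII ACCUMULATION 2 took the most reads. HCF164, MSTRG.1334, a thioredoxin-like protein needed for cytochrome b6-f assembly, had a log2 fold change of −0.30 ± 0.24, and stress enhanced protein 1, MSTRG.2345, a light-harvesting-like protein, one of 0.37 ± 0.24. As green tissue genes, 8 photosystem, cytochrome b6-f, antenna and NDH genes outside the set were summed in the same way. They came to 23.5 to 30.1 CPM in LM and 41.9 to 98.5 CPM in LS, and LS2 was highest through the antenna gene MSTRG.13 (69 counts, against 0 or 1 elsewhere) and the oxygen-evolving enhancer gene MSTRG.2471 (175 counts, against at most 8). Their sum was above 0 in every library and separate between the groups, although single genes had 0 counts in some libraries. MSTRG.13, MSTRG.135, MSTRG.2471 and MSTRG.2622 overlapped. Of those that did not, MSTRG.303, MSTRG.445 and MSTRG.2502 had at most 2 counts in any LM library. They were named photosystem II reaction center proteins M, K and H without the word chloroplastic, so their names do not place these genes in the nucleus. MSTRG.953 had 38 to 56 counts in LM against 89 to 105 in LS. The part of the green tissue genes in the values of the thylakoid factors was not tested.

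In carbon metabolism and transport 3 of 7 tested genes were higher and 4 lower, with a median of −0.06. Most reads fell on CP12, MSTRG.2325, a small protein that ties glyceraldehyde-3-phosphate dehydrogenase to phosphoribulokinase in the dark. It was at 45.5, 44.6 and 50.1 CPM in LM and at 20.1, 14.4 and 53.6 CPM in LS. LM was even, whereas LS6 was above every LM library, and the log2 fold change was 0.67 ± 0.51 (adjusted p = 0.521, edgeR). A second CP12 gene, MSTRG.2324, had the lowest log2 fold change of all tested members, −2.19 ± 1.01 (adjusted p = 0.360, edgeR). Its counts were 15, 28 and 81 in LM libraries against 435, 44 and 91 in LS libraries, so that LS2 stood alone and the remaining libraries overlapped. The highest value was that of the dicarboxylate transporter MSTRG.2233, which exchanges malate and glutamate across the envelope, at 2.06 ± 1.04 (adjusted p = 0.372, edgeR). Counts were 241, 357 and 53 for LM against 15, 129 and 25 for LS, and LM6 was below LS3. The triose phosphate translocator MSTRG.1819 was at −0.06 ± 0.49 and the phosphoglucan phosphatase MSTRG.852, an enzyme of starch breakdown, at 0.09 ± 0.20. The second CP12 gene and the transporter were picked out for their extreme values.

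Carotenoid and hormone metabolism (3 of 4 tested genes higher, median 0.28) and lipid and oxylipin metabolism (2 of 4 higher, median −0.20) held some of the most uneven genes. MSTRG.1679, ORANGE-LIKE, from a family that stabilizes phytoene synthase at the start of the carotenoid pathway, was at 23.1, 80.6 and 98.0 CPM in LM and at 127, 8.89 and 9.46 CPM in LS. LS2 was the highest and LS3 and LS6 the lowest of all libraries, with a log2 fold change of 0.47 ± 1.17 (adjusted p = 0.869, edgeR). MSTRG.805, named for the glycerophosphodiester phosphodiesterases GDPD3 and GDPD1, which split the head groups from deacylated phospholipids, was at 17.0, 65.3 and 53.1 CPM in LM and at 167, 12.1 and 24.4 CPM in LS. Here too LS2 was highest and LS3 lowest. Its log2 fold change of −0.59 ± 1.05 (adjusted p = 0.808, edgeR) became 1.33 without LS2. The stearoyl-ACP desaturase MSTRG.2772, which sets the first double bond of plastid fatty acids, was at 0.003 ± 0.32.

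Among the 9 other or unclear members, all 4 tested genes had values below 0, with a median of −0.32. The sum of these genes turned on MSTRG.2185, a WEB family protein, of a family that includes proteins needed for chloroplast movement in response to light. It was at 290 CPM in LM3 and at 5.80 and 8.77 CPM in LM4 and LM6, and at 17.9 CPM in LS2 and 192 and 248 CPM in LS3 and LS6. High and low libraries thus occurred in both groups, with a ratio of 50.1 between the highest and lowest LM library. The log2 fold change was −0.59 ± 1.64 (adjusted p = 0.880, edgeR).

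Other members also had a wide spread within LM, within LS or within both. The ratio of the highest to the lowest library had a median of 1.71 within LM and of 1.71 within LS over the tested members. It was over 5, or a library was at 0, for 11 members in LM and 11 in LS, which were 14 genes in all. Of these 14 genes 0 had groups that did not overlap, but a choice by wide spread within a group itself favours overlap. The share of all listed genes with such a spread is not given here. A single library stood at least 3-fold above the next for 2 of the 77 tested members (2.60%), CP12 MSTRG.2324 in LS2 and stress enhanced protein 2, MSTRG.2343, in LM6. Among the other listed plant genes this was so for 47 of 642 (7.32%). LS2 was the highest library for 18 of the 77 members and LS3 for 7, beside 156 and 92 of the 642 other listed genes. Of the untested members, the plastid carbonic anhydrase MSTRG.713 had 36 of its 41 counts in LS2.

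**Figure D4:**
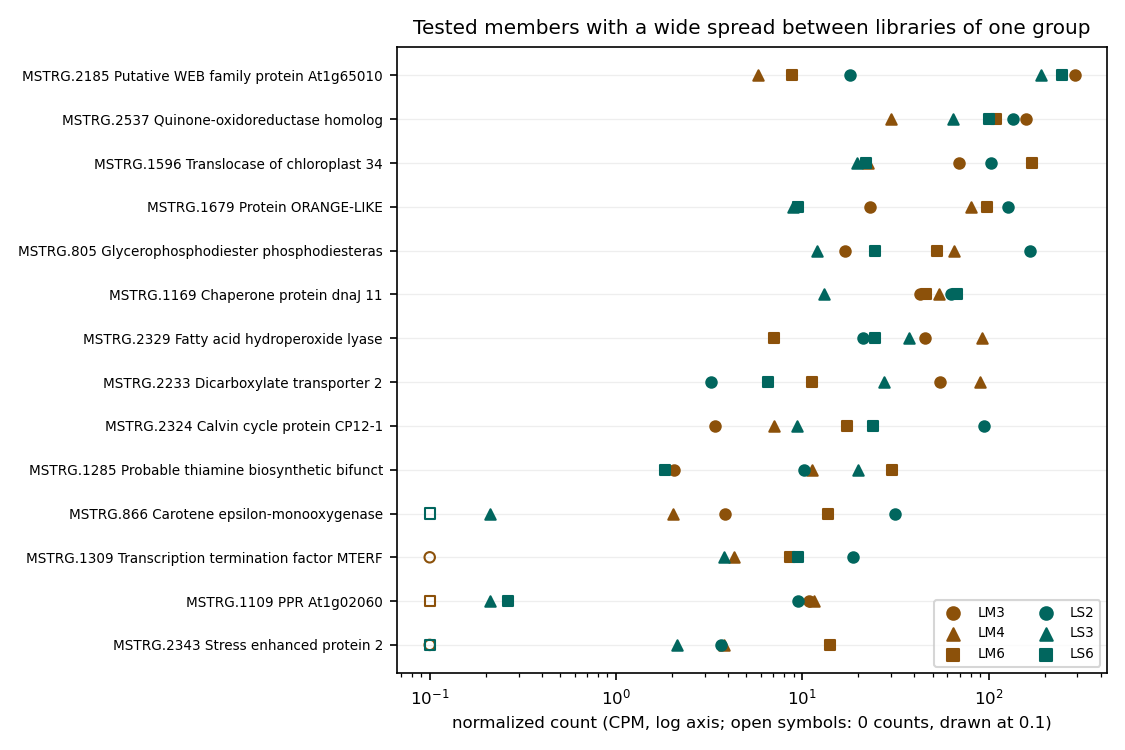
The 14 tested members whose highest library was over 5 times the lowest within LM or within LS, or which had a library at 0, are plotted by normalized count (CPM, logarithmic horizontal axis), with LM in brown and LS in green and a symbol for each replicate. The ranges of brown and green symbols overlap in every row, and the WEB family gene at the top has LM3 beside LS3 and LS6 and LM4 and LM6 beside LS2.

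Several members share a Trinity gene, the assembler's unit for transcripts of 1 locus or of near-identical loci, so that reads could be split between them. Reads that aligned equally to more than 1 of them could also be left uncounted. Sharing concerned 49 members on 23 Trinity genes. On 17 of them the same member held the most counts in all 6 libraries, and on 6 the leading member changed. The changes could be large. Of the mTERF genes, which act in plastid transcription, MSTRG.1310 had 63 counts in LM3, 0 in LM4 and LM6 and 2, 4 and 2 in LS, while MSTRG.1309 had 0 counts in LM3, 17 and 40 in LM4 and LM6 and 87, 18 and 36 in LS. LM3 thus used one assembled gene and the others mostly the other. The log2 fold change of MSTRG.1309 alone was −1.31 ± 1.3 and that of the summed pair −0.31 ± 0.66. Of the genes for TOC34, a GTPase that receives precursors at the outer envelope, MSTRG.1595 had 223 counts in LS6 and 3 to 5 in each other library, and MSTRG.1596 had 308, 89 and 799 counts in LM3, LM4 and LM6 against 479, 93 and 84 in the LS libraries. Summing the pair moved the log2 fold change from 0.86 to 0.38. For the loci of the kinase, the copper chaperone and LOW PSII ACCUMULATION 2, summing left values of 1.97, 1.72 and −0.91. Over all Trinity genes summed, 0 loci with members passed the adjusted threshold and 7 had an unadjusted p under 0.05, 1 of them the locus of oxygen-evolving enhancer protein 1, whose sum takes in MSTRG.2471 from outside the set.

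**Figure D5:**
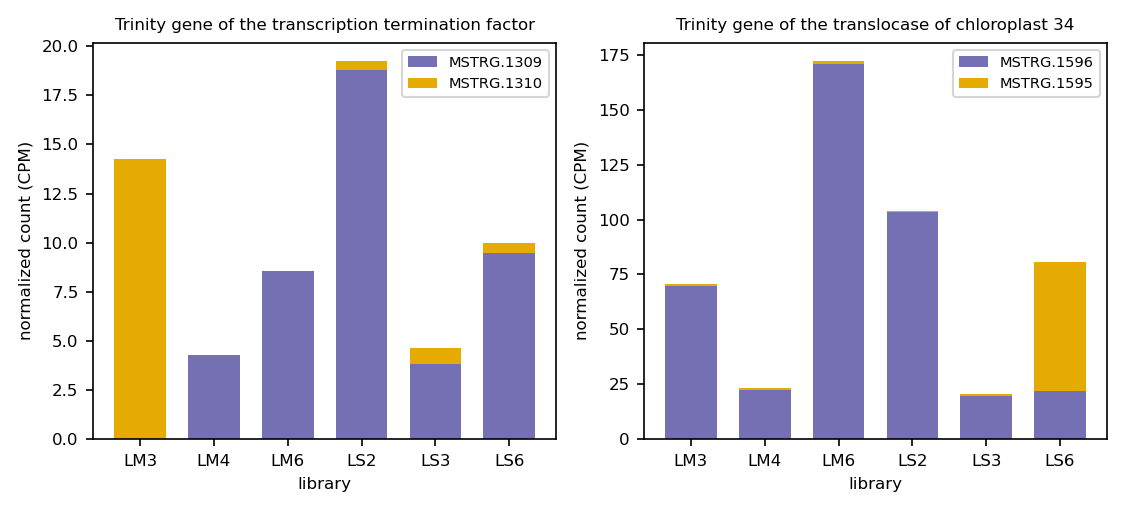
Stacked bars show the normalized counts (CPM, vertical axis) of a pair of members on 1 Trinity gene in each library, for the mTERF locus (left) and the TOC34 locus (right). LM3 on the left and LS6 on the right are the only libraries in which the second member of the pair (yellow) holds most of the counts.

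Other lists were read in the same fit for comparison. Of 27 further genes with a plastid GO term but without the word chloroplastic, 15 passed the filter, 12 with higher and 3 with lower values in LM and a median of 0.31. Of 48 genes named mitochondrial, 28 were tested, with 14 higher and 14 lower and a median of 0.04. At an unadjusted p under 0.05 these lists held 4 genes each, 26.7% of the plastid and 14.3% of the mitochondrial genes tested. Over all listed plant genes tested the share was 15.7%. A gene could be in both lists, and the highest log2 fold change was 2.72 in each. Members assigned to an orchid (65 tested) had a median of −0.08. All 5 tested members assigned to a wider plant group were higher in LM, with a median of 0.47. Of these, MSTRG.115, MSTRG.170 and MSTRG.2230 were assigned to Pentapetalae, eudicots without the orchids, and MSTRG.1678 and MSTRG.1679 shared a Trinity gene. The median was the value of MSTRG.1679, which changed sign without LS3 or without LS6. Members assigned to another named taxon summed to 162 to 248 CPM in LM and 138 to 160 CPM in LS, and overlapped without the dicarboxylate transporter MSTRG.2233. None of these differences between lists was tested.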

How the data were processed

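The authors trimmed reads with bbduk, assembled all libraries with Trinity, aligned them with HISAT2 2.0.4, merged transcripts with StringTie 1.3.5 and used HTSeq for counting. The deposited values are whole-number counts per assembled gene, without normalization. The library kit does not mark strand, so reads of overlapping genes on opposite strands cannot be told apart. The 5 rows that name no gene took 68.3% to 72.8% of each file and were left out. Most of this was alignments that were not unique, 63.6% to 64.8% in LM and 61.1% to 61.4% in LS. Such reads were counted for no gene. Names and taxa came from the study's plant annotation table, of which 1159 rows were used, and library sizes from its number of plant reads. The members and lists were chosen with earlier results of these data known.

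Counts of the 1159 listed genes were tested in R 4.3.3 with edgeR 4.0.16 (quasi-likelihood test, TMM factors of 0.916 to 1.06, filterByExpr with a minimum count of 10 and total of 15, no covariates), with Benjamini-Hochberg adjustment over the 719 genes that passed and a threshold of 0.05. The scripts were tested on simulated data. At the adjusted threshold edgeR recovered 0 of 193 genes changed 2-fold, 69 of 195 changed 4-fold and 173 of 197 changed 8-fold. The 0 calls therefore do not show that changes of 2-fold or 4-fold were absent, and some 8-fold changes were missed too. In these simulations 193 to 197 of 686 to 691 genes were changed. Recovery after adjustment depends on that share, which is not known for the real data. Alternatives used DESeq2 1.42.0, limma 3.58.1 (limma-voom), other scalings, filters, counting units and leaving out each library. P-values measure the spread between 3 samples per group. Ratios of low counts have exact 95% intervals and 0 has a floor of 3 counts per group, both for counting error only, since reads carried no molecular identifiers.

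Named members were those with an unadjusted p under 0.05, the tested member of each role with the highest mean CPM, untested members with non-overlapping libraries and at least 10 counts, and tested members of 1 Trinity gene with opposite signs that differed by over 1 on the log2 scale (there were 0). Other genes illustrate a role or were picked out with their values in view. Fold changes are edgeR's fitted values.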

Additional observations from a re-analysis of the deposited data

How the results depend on the processing

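The number of members called was 0 under every edgeR setting and limma-voom and 6 under DESeq2. Over all genes the calls were 0 in these edgeR settings too, except 688 of 22268 with all genes of the files and 4 of 654 with a stricter filter (10 counts or more in each library of LM or of LS). Members with an unadjusted p under 0.05 numbered 6, and 14 under DESeq2, 11 without a filter on low counts, and 5 to 10 when 1 library was left out, the highest without LS3. The median log2 fold change of −0.0050 was 0.065 without TMM factors, 0.045 in limma-voom, −0.27 with all genes of the files, −0.029 with counts summed per Trinity gene, 0.041 with the replicate block, and −0.083 to 0.068 with 1 library left out. Members with non-overlapping libraries numbered 12, 20 without the filter, and 16 to 30 with 1 library left out, where 2 against 3 libraries overlap less often by construction. It was 21 without LM3, 24 without LM6, 19 without LS2 and 30 without LS3. For unadjusted p and for non-overlap, shares over all listed genes under these settings are not given here. A rise in such a count, also with summed loci or the block, therefore cannot be told apart from a rise over all genes. The ratio of the summed levels stayed between 0.870 and 1.01.

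Of 240 values of the 16 tested named members under 15 alternatives, 225 kept their direction and side of the threshold, 4 passed it in DESeq2 alone and 11 changed sign. The log2 fold change of MSTRG.805 was 0.063 in limma-voom and 0.37 with the block, and ran from −1.10 to 1.33 (without LS2) with 1 library left out. In the same way MSTRG.1679 ran from −0.081 (without LS6; −0.041 without LS3) to 2.89 (without LS2), and MSTRG.2185 from −4.36 (without LM3) to 0.017 (without LM4). MSTRG.1877 was −0.046 with all genes. MSTRG.2537 was 0.11 without TMM factors and 0.034 without the filter, and ran from −0.54 (without LM3) to 0.43 (without LM4; 0.30 without LS2). The causes were not tested.

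Libraries with the same replicate number (LM3 and LS2, LM4 and LS3, LM6 and LS6) had correlations of their deviations of −0.0565, 0.157 and 0.138. LM4 and LM6 correlated best with the LS library of their replicate number. LM3 correlated best with LS3 (0.0853), which shares the number in its name. These values do not settle whether samples were paired, and the main fit took none as pairs. Pairs by the numbers in the library names were not fitted. With the replicate block 7 members had an unadjusted p under 0.05 and 0 were called. At this depth 44 members fell below edgeR's filter. The count of non-overlapping members comes from no test, so the block and the other tests give no value for it, and DESeq2's scaling is covered by the RLE factors.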
